A study of Mus musculus with 9 samples.

Results

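The 9 genes described here are a set used to follow the epithelial to mesenchymal transition, the change in which cells loosen their junctions, remodel their filaments and matrix contacts and become able to move. They were chosen by symbol, as the rows named Zeb1, Zeb2, Snai1, Snai2, Cdh2, Vim, Fn1, Itga5 and Itgb1 among 22322 genes listed, and all 9 passed the filter on low counts that left 13158 genes for testing. Gene expression was measured by RNA-seq in mouse R1 cells, an established embryonic stem cell line, after 6 days in suspension without the cytokine LIF. Such culture lets the cells aggregate into embryoid bodies and is used to start differentiation. How far that went here is described only through the markers below. The groups were cells with a hairpin against Pfkp, the platelet isoform of the glycolytic enzyme phosphofructokinase (sh-Pfkp), cells with a hairpin against Lin41, the RNA-binding TRIM-NHL protein of the gene Trim71 (sh-Lin41), and cells with a control hairpin (sh-ctrl), with 3 libraries each. The labels give the genotypes as Pfkp knockdown, Lin41 knockdown and WT in that order of groups, and all 9 libraries share the cell line and the 6 days of embryoid body formation. The labels name no second hairpin, rescue or clone, so knockdown of the target and any other effect of a hairpin or line cannot be told apart. Nothing in the labels says whether libraries of one group come from different cultures, and the p-values therefore cover a spread between libraries that may be technical.

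In textbook accounts the transition is driven by zinc finger repressors of the ZEB and SNAIL families, which bind E-box elements and switch off epithelial genes such as the E-cadherin gene Cdh1. Cells then exchange E-cadherin for N-cadherin, the product of Cdh2, replace keratin filaments with vimentin, and hold on to fibronectin in the matrix through the integrin receptor made of the alpha 5 and beta 1 chains. The mouse embryo runs the same programme at gastrulation, when epiblast cells leave the primitive streak, and mouse stem cells are known to need Zeb2 to leave pluripotency. The deposited annotation of these genes follows those roles. Zeb1, Zeb2, Snai1 and Snai2 shared the term for negative regulation of transcription by RNA polymerase II, which 913 listed genes carry. Fn1, Itga5 and Itgb1 shared the pathway of ECM-receptor interaction, which 89 listed genes carry, and Itga5 and Itgb1 were the only 2 genes with the term for the integrin alpha5-beta1 complex.

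The E-box letters CAGGTG, read on both strands so that CACCTG counts as the same motif, were looked for in the 250 bases before each gene start in RefSeq promoters of build GRCm38.p6. Vim, Zeb2, Snai1, Itga5 and Itgb1 were matched by symbol and searched, with 8 promoters between them. Of these 1, that of Snai1, held the motif, against 17.2% of all 32851 promoters. Fn1 and Snai2 had no promoter entry, and Zeb1 and Cdh2 were left out of the search. The count therefore says nothing about these other genes of the set. Of the 26 genes in a list of epithelial genes 18 were matched, and 12 of these, 66.7%, held the motif in at least one promoter, against 19.4% of all 27025 genes. Cdh1 was not among the matched genes and was not searched. A match is a description of the letters and does not show that a factor binds there. Sequences are printed for Snai1, the repressor gene that holds the motif itself, for Vim, a mesenchymal gene without it, and for Epcam and Cldn4, the epithelial genes among those with the motif that are described with their values further on. They run 5′ to 3′ on the strand of the gene and end at the base before its start, and capitals mark the motif.
Snai1, chr2:167537945-167538194, plus strand: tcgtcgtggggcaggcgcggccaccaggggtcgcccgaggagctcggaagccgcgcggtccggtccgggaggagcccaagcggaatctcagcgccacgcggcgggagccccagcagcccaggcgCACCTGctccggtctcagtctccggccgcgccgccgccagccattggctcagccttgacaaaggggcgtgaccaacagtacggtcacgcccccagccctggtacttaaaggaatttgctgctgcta
Vim, chr2:13574061-13574310, plus strand: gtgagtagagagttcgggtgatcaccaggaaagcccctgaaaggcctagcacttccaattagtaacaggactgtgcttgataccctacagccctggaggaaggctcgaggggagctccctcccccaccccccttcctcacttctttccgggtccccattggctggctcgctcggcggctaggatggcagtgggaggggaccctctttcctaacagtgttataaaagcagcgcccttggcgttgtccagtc
Epcam, chr17:87635729-87635978, plus strand: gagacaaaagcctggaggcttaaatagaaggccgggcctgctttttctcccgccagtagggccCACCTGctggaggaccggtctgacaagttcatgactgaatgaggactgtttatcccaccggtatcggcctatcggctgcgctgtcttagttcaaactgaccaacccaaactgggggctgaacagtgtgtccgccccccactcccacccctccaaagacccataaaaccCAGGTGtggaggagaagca
Cldn4, chr5:134946935-134947184, minus strand: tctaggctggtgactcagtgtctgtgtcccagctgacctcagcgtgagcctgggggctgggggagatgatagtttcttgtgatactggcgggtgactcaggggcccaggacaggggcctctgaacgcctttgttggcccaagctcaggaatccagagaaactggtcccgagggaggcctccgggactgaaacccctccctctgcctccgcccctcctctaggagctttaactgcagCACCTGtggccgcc
The motif began 126 bases before the start of Snai1 and 14 bases before that of Cldn4. Epcam held it at 2 places, 187 and 19 bases before its start.

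Total counts lay between 15495194 and 20607683 per library. The first pair of principal components held 42.1% and 28.8% of the variance. Each hairpin's own target was lower, Pfkp with 101 to 105 CPM in sh-Pfkp against 245 to 248 CPM in sh-ctrl (log2 fold change -1.27) and Trim71 with 156 to 165 CPM in sh-Lin41 against 264 to 273 CPM in sh-ctrl (-0.75). The target of the other hairpin differed too. Trim71 had 347 to 360 CPM in sh-Pfkp, above the sh-ctrl range, and Pfkp had 222 to 233 CPM in sh-Lin41, below it. Differences were tested on counts with edgeR's quasi-likelihood test, adjusted over all 13158 genes with a threshold of 0.05, and levels are given as CPM, the count scaled to the TMM-adjusted depth of the library, with means ± SD of 3 libraries. A gene whose adjusted p passed the threshold is called here. Large shares of all genes passed it. The 9 genes and the related lists have to be read against the share of all tested genes called. It was 56.6% in sh-Pfkp against sh-ctrl, 54.3% in sh-Lin41 against sh-ctrl and 55.1% in sh-Pfkp against sh-Lin41. In sh-Pfkp against sh-ctrl the calls over all genes split into 3721 higher and 3730 lower, and with limma on log2(FPKM + 1) into 2507 higher and 3802 lower.

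The labelled cell type was checked against markers, and in every group the pluripotency list had by far the largest sum. The 8 pluripotency markers summed to between 3984 and 4041 CPM in sh-Pfkp, 5062 and 5089 in sh-Lin41 and 4247 and 4300 CPM in sh-ctrl libraries. Against sh-ctrl 4 of them rose and 4 fell in sh-Pfkp, and 5 rose and 1 fell in sh-Lin41, so the sums do not describe each marker. Tdgf1 had 551 ± 10.4 CPM in sh-Pfkp and 984 ± 2.39 CPM in sh-ctrl, whereas Nanog had 555 ± 5.79 and 489 ± 5.35 CPM. The 12 primitive streak and early mesoderm markers, the cells in which the transition takes place in the embryo, summed to only 17.2 to 19.0 CPM in sh-Pfkp, 15.8 to 17.3 CPM in sh-Lin41 and 21.1 to 21.9 CPM in sh-ctrl, and Msgn1 had no count in any library. Fibroblast markers, 12 in all, summed to 25.3 to 27.7 CPM in sh-Pfkp, 11.7 to 13.8 CPM in sh-Lin41 and 16.4 to 16.9 CPM in sh-ctrl. Among them Fap had no count in any library, while Dcn, Lum and Postn had 52, 10 and 47 counts over the sh-Pfkp libraries and no count in sh-Lin41 or sh-ctrl. Of the 7 fibroblast markers tested 4 rose and 2 fell in sh-Pfkp against sh-ctrl, and 1 rose and 1 fell in sh-Lin41. In sh-Pfkp the 2 that fell were Thy1 (log2 -0.996, SE 0.188, edgeR adjusted p = 3.84e-05) and Pdgfrb (-1.68), and Twist1 was at 0.02 and not called. The 12 neural markers summed to 155 to 162 CPM in sh-Pfkp, 119 to 126 CPM in sh-Lin41 and 112 to 117 CPM in sh-ctrl, with Fabp7 at 0 in all libraries. The 12 endoderm markers, with Afp at 0 throughout, summed to 94.2 to 99.7 CPM in sh-Pfkp, 54.8 to 59.4 CPM in sh-Lin41 and 80.3 to 81.9 CPM in sh-ctrl. The 8 endothelial markers, with Emcn at 0 throughout, summed to 44.2 to 49.9, 40.7 to 44.5 and 55.8 to 57.7 CPM in sh-Pfkp, sh-Lin41 and sh-ctrl libraries. Single genes carried some of these sums. Without the most abundant marker of each list, a choice made after seeing the data, the group ranges overlapped for the streak list (6.79 to 8.41 CPM in sh-Pfkp, 6.55 to 8.39 CPM in sh-Lin41 and 6.06 to 7.69 CPM in sh-ctrl without Eomes) and the endothelial list (10.8 to 13.9, 12.6 to 14.4 and 11.6 to 13.4 CPM without Pecam1). The endoderm list came to 6.46 to 7.26 CPM in sh-Pfkp, 8.26 to 8.97 CPM in sh-Lin41 and 6.87 to 9.27 CPM in sh-ctrl without Sparc, so its order over the groups was that of Sparc alone. The fibroblast list without Pdgfrb came to 22.6 to 25.4 CPM in sh-Pfkp, 7.14 to 8.44 CPM in sh-Lin41 and 8.18 to 8.70 CPM in sh-ctrl. Pdgfrb was itself lowest in sh-Pfkp, so leaving it out could only widen the difference. Much of the sh-Pfkp sum lay in Col1a1, Col1a2 and Col3a1, with means of 6.49, 5.08 and 5.22 CPM there and 1.87, 0.0213 and 0.0395 CPM in sh-ctrl. The neural list without Tubb3 came to 75.4 to 78.0 CPM in sh-Pfkp, 66.6 to 69.2 CPM in sh-Lin41 and 46.3 to 49.2 CPM in sh-ctrl. The part of other cell types in the results that follow was not tested.

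Both knockdowns carried more Zeb1, Zeb2 and Vim RNA and less Snai1, Cdh2 and Itgb1 RNA than the control, so the set did not move as a block. In sh-Pfkp against sh-ctrl 7 of the 9 genes were called, with Zeb1, Zeb2, Vim and Fn1 higher and Snai1, Cdh2 and Itgb1 lower. In sh-Lin41 against sh-ctrl 7 were called, with Zeb1, Zeb2, Vim and Itga5 higher and Snai1, Cdh2 and Itgb1 lower. Both comparisons use the same 3 control libraries. The median log2 fold change over the 9 genes was 0.13 in sh-Pfkp and 0.25 in sh-Lin41, beside -0.00 and 0.00 over all tested genes. Each median is the value of a single gene. In sh-Pfkp it is that of Snai2, which was not called, and in sh-Lin41 that of Itga5, so neither describes a shift of the set. Genes called higher made up 28.3% of all tested genes in sh-Pfkp and 26.9% in sh-Lin41, and genes called lower 28.3% and 27.3%. Most changes were small. No member differed by 2-fold or more in sh-Pfkp, where 6.51% of all genes were called at that size, and 2 did in sh-Lin41, Zeb2 and Cdh2, where 4.26% were. In bulk RNA, fewer cells of a type and less RNA per cell cannot be told apart.

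**Figure D1:**
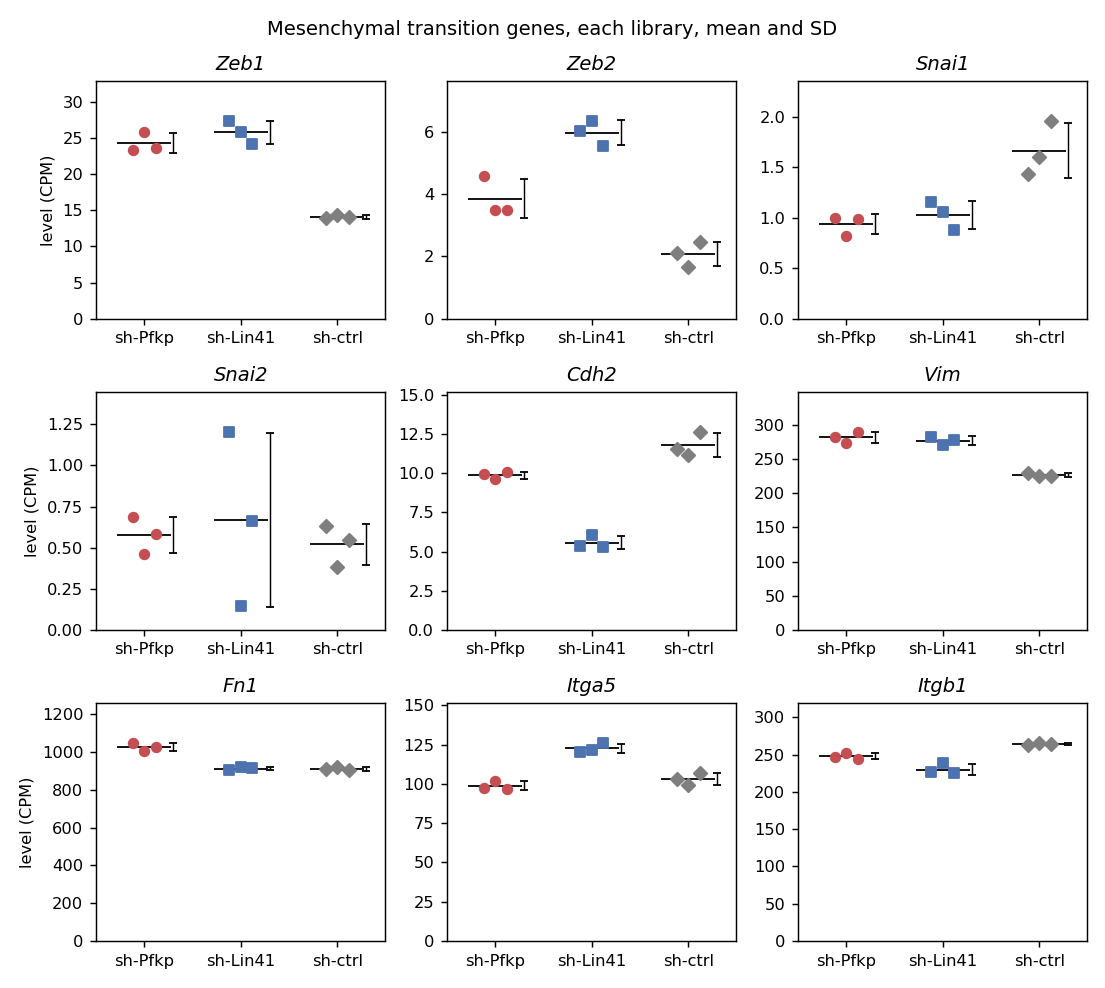
Levels of the 9 genes in CPM, with 1 point per library, a line at the group mean and a bar of ±1 SD, and linear axes that start at 0. The 3 sh-ctrl libraries lie below all 6 knockdown libraries for Zeb1, Zeb2 and Vim and above all 6 for Snai1, Cdh2 and Itgb1. Fn1 stands apart in sh-Pfkp and Itga5 in sh-Lin41, and the Snai2 libraries overlap.

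The ZEB factors gave the largest rises of the set. Zeb1 (ENSMUSG00000024238), a repressor of Cdh1 and of microRNA genes that keep cells epithelial, had 23.4, 25.8 and 23.6 CPM in sh-Pfkp, 27.4, 25.8 and 24.2 CPM in sh-Lin41 and 13.9, 14.4 and 14.0 CPM in sh-ctrl. The lowest knockdown library was above the highest control library. The means were 24.3 ± 1.36 CPM in sh-Pfkp, 25.8 ± 1.62 CPM in sh-Lin41 and 14.1 ± 0.251 CPM in sh-ctrl (SD, n = 3 each). Zeb1 rose by 0.79 on the log2 scale in sh-Pfkp (SE 0.0730, edgeR adjusted p = 8.92e-11) and by 0.87 in sh-Lin41 (SE 0.0719, edgeR adjusted p = 5.09e-12). The difference between the knockdowns did not pass the threshold, with a log2 fold change of -0.09 in sh-Pfkp against sh-Lin41 and a 95% interval from -0.22 to 0.04.

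Zeb2 (ENSMUSG00000026872), the related repressor and SMAD-binding protein, was a rarer transcript. It had 87, 68 and 60 counts in sh-Pfkp, 120, 132 and 101 counts in sh-Lin41 and 37, 26 and 45 counts in sh-ctrl. Its levels were 3.85 ± 0.630 CPM in sh-Pfkp, 5.98 ± 0.405 CPM in sh-Lin41 and 2.08 ± 0.398 CPM in sh-ctrl. The groups did not overlap, and the order of the 3 groups was sh-Lin41, sh-Pfkp and sh-ctrl from high to low. Zeb2 rose by 0.88 on the log2 scale in sh-Pfkp (SE 0.184, edgeR adjusted p = 0.000139) and by 1.51 in sh-Lin41 (SE 0.170, edgeR adjusted p = 4.80e-09). Set against sh-Lin41 it was lower in sh-Pfkp, by log2 -0.63 (SE 0.150, edgeR adjusted p = 0.000569), a call that was lost with limma on log2(FPKM + 0.1) (adjusted p = 0.0552).

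For Zeb2 the deposited FPKM values, which divide counts by a transcript length and the depth, did not follow the counts. They were 0.91, 0.72 and 0.65 FPKM in sh-Pfkp, 1.12, 2.27 and 1.52 FPKM in sh-Lin41 and 0.42, 0.33 and 1.15 FPKM in sh-ctrl. In sh-ctrl the third library stood above the others by FPKM but had only 45 counts against 37 and 26. The length that turns each library's count into its FPKM can be worked back, and for Zeb2 it was 4926, 4726 and 5260 bases in sh-Pfkp, 5446, 2822 and 3699 bases in sh-Lin41 and 5093, 5085 and 2163 bases in sh-ctrl. Its highest value was 2.52 times its lowest, whereas this ratio was 1.24 for Zeb1, 1.11 for Cdh2 and at most 1.03 for the other 6 genes. On log2(FPKM + 1) the rise of Zeb2 in sh-Pfkp was 0.14 with a limma adjusted p of 0.579, so the call rests on counts, while that in sh-Lin41 kept its call. In the authors' deposited table, whose log2 ratio is taken from mean FPKM, Zeb2 has a ratio of 0.26 in sh-Pfkp with an FDR of 0.00112 and a ratio of 1.37 in sh-Lin41 with an FDR of 1.60e-09. In the reference annotation the exons of Zeb2 overlap those of Zeb2os and Gm27761 on the other strand and of Mir5129 on its own, and those of Zeb1 overlap Gm10125 on the other strand. None of the 4 is in the deposited table, and the sources used here do not give the strand setting of the counting, so the reads of overlapping genes cannot be told apart.

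**Figure D2:**
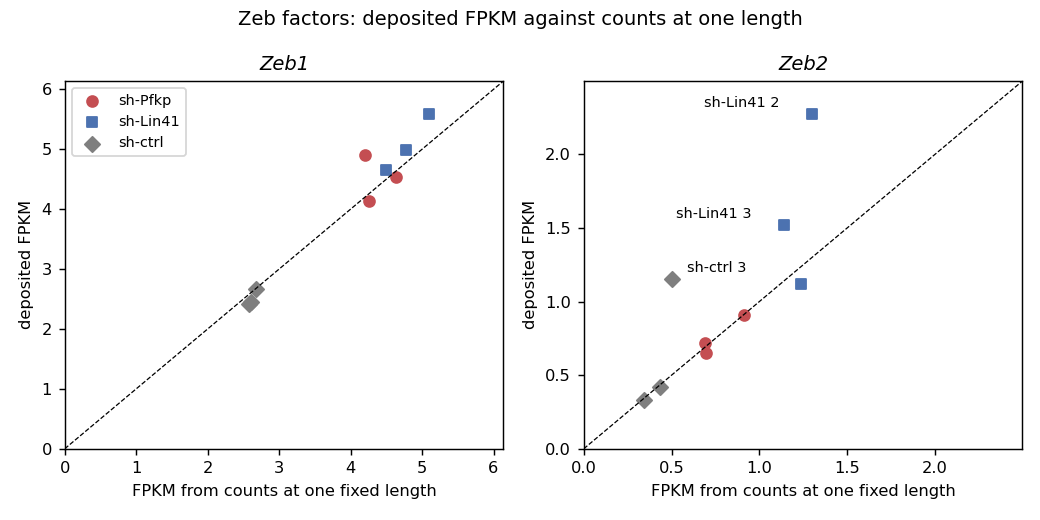
Deposited FPKM of each library (vertical axis) against FPKM computed from the same counts at one fixed length, the median over the libraries (horizontal axis), for Zeb1 and Zeb2, with a dashed line of equality and linear axes. Zeb1 libraries lie near the line, while sh-Lin41 2, sh-Lin41 3 and sh-ctrl 3 lie above it for Zeb2, at 2.27, 1.52 and 1.15 deposited FPKM.

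The SNAIL factors were near the limit of what this depth can measure. Snai1 (ENSMUSG00000042821), which mouse embryos need for mesoderm cells to lose their epithelial character, had 19, 16 and 17 counts in sh-Pfkp, 23, 22 and 16 counts in sh-Lin41 and 25, 25 and 36 counts in sh-ctrl. As levels these were 0.937 ± 0.101 CPM in sh-Pfkp, 1.03 ± 0.139 CPM in sh-Lin41 and 1.66 ± 0.273 CPM in sh-ctrl, with every control library above every knockdown library. Snai1 fell by 0.83 on the log2 scale in sh-Pfkp (SE 0.281, edgeR adjusted p = 0.0123) and by 0.68 in sh-Lin41 (SE 0.273, edgeR adjusted p = 0.0340). The first call was lost without sh-Pfkp replicate 2 (edgeR adjusted p = 0.0518) or sh-ctrl replicate 3 (edgeR adjusted p = 0.0815). The second was lost without sh-Lin41 replicate 2 or 3 or sh-ctrl replicate 2 or 3, at edgeR adjusted p between 0.0550 and 0.167, and also with DESeq2 (adjusted p = 0.0902) and without the filter on low counts (edgeR adjusted p = 0.0506). In the authors' deposited table Snai1 has FDR values of 0.0514 in sh-Pfkp and 0.147 in sh-Lin41. Between the knockdowns its log2 fold change was -0.15, with a 95% interval from -0.76 to 0.46.

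Snai2 (ENSMUSG00000022676), which marks migrating neural crest in vertebrate embryos, had 13, 9 and 10 counts in sh-Pfkp, 24, 3 and 12 counts in sh-Lin41 and 11, 6 and 10 counts in sh-ctrl. The sh-Lin41 libraries spanned the range of both other groups. No comparison of Snai2 passed the threshold, and the 95% intervals of its log2 fold change ran from -0.90 to 1.16 in sh-Pfkp and from -0.65 to 1.33 in sh-Lin41, so that a 2-fold rise lay within both intervals at this depth.

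Around these 4 factors, a list of other transcription factors of the transition had 15 genes, of which 9 were tested. In sh-Pfkp 2 rose and 4 fell, with a median log2 fold change of -0.10. In sh-Lin41 3 rose and 2 fell, with a median of 0.08. The share of all tested genes called was 56.6% in sh-Pfkp and 54.3% in sh-Lin41. Etv5, an ETS factor downstream of FGF signalling, rose to 488 ± 5.09 CPM in sh-Pfkp, against 441 ± 4.91 CPM in sh-ctrl (log2 0.15, SE 0.0191, edgeR adjusted p = 1.11e-07). Tcf3, an E protein that binds E-boxes, fell in sh-Pfkp (log2 -0.19, SE 0.0323, edgeR adjusted p = 1.16e-05) and in sh-Lin41 (-0.25, SE 0.0322, edgeR adjusted p = 7.18e-08). Tcf4, another E protein, rose in sh-Lin41 to 51.0 ± 0.851 CPM, against 36.5 ± 1.56 CPM in sh-ctrl (log2 0.48, SE 0.0498, edgeR adjusted p = 9.15e-10). The count of 6 called genes in sh-Pfkp was 3 with DESeq2, 3 without sh-Pfkp replicate 1 and 2 without sh-ctrl replicate 1, and the count of 5 in sh-Lin41 was 3 with limma on log2(FPKM + 1).

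Signals of the TGF-beta family are known inducers of the transition, and their pathway genes more often fell than rose in sh-Pfkp. Of 17 tested genes 3 rose and 9 fell there, with a median log2 fold change of -0.18, and 4 rose and 6 fell in sh-Lin41, with a median of -0.02. Among all tested genes 28.3% were called higher and 28.3% lower in sh-Pfkp, and 26.9% and 27.3% in sh-Lin41. Smad7, the inhibitory SMAD that TGF-beta induces, fell to 51.8 ± 1.45 CPM in sh-Pfkp, against 83.6 ± 0.914 CPM in sh-ctrl (log2 -0.69, SE 0.0397, edgeR adjusted p = 8.74e-16). Skil, a SMAD corepressor, fell in sh-Pfkp (log2 -0.32, SE 0.0250, edgeR adjusted p = 1.48e-12) and in sh-Lin41 (-0.31, SE 0.0248, edgeR adjusted p = 2.48e-12).

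N-cadherin RNA went the opposite way to that of the ZEB factors. Cdh2 (ENSMUSG00000024304) had 189, 188 and 173 counts in sh-Pfkp, 107, 125 and 96 counts in sh-Lin41 and 202, 175 and 232 counts in sh-ctrl. These came to 9.88 ± 0.220 CPM in sh-Pfkp, 5.56 ± 0.407 CPM in sh-Lin41 and 11.8 ± 0.763 CPM in sh-ctrl. All 3 sh-Lin41 libraries were below every other library, and the sh-Pfkp libraries lay just under those of sh-ctrl. Cdh2 fell by 1.08 on the log2 scale in sh-Lin41 (SE 0.107, edgeR adjusted p = 3.34e-10), the largest fall of the set. In sh-Pfkp it fell by 0.26 (SE 0.0991, edgeR adjusted p = 0.0265), a call that was lost with DESeq2 (adjusted p = 0.0816), with limma on log2(FPKM + 0.1) (adjusted p = 0.0523) and without sh-Pfkp replicate 1, sh-Pfkp replicate 2 or sh-ctrl replicate 3 (edgeR adjusted p = 0.0541, 0.0814 and 0.135). Set against sh-Lin41 it was higher in sh-Pfkp, by log2 0.83 (SE 0.109, edgeR adjusted p = 1.11e-07).

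E-cadherin RNA was lower in both knockdowns too. Cdh1 averaged 564 ± 1.76 CPM in sh-Pfkp, 489 ± 10.3 CPM in sh-Lin41 and 629 ± 12.6 CPM in sh-ctrl. It fell by 0.16 on the log2 scale in sh-Pfkp (SE 0.0194, edgeR adjusted p = 2.64e-08) and by 0.37 in sh-Lin41 (SE 0.0195, edgeR adjusted p = 1.12e-16). Per transcript length, Cdh2 was 1.90%, 1.82% and 2.03% of the FPKM of Cdh1 in sh-Pfkp, 1.12%, 1.32% and 1.18% in sh-Lin41 and 2.03%, 1.96% and 2.12% in sh-ctrl. The share was lower in every sh-Lin41 library than in any other, and sh-Pfkp and sh-ctrl overlapped. Of 9 tested cadherin and catenin genes other than Cdh2, 3 rose and 3 fell in sh-Pfkp and 1 rose and 5 fell in sh-Lin41, with median log2 fold changes of -0.01 and -0.10. Called genes made up 56.6% of all tested genes in sh-Pfkp and 54.3% in sh-Lin41. Cdh3, the P-cadherin gene, fell in sh-Pfkp (log2 -0.72, SE 0.102, edgeR adjusted p = 4.33e-07), and Ctnna1, which encodes alpha-catenin and links cadherins to actin, fell in sh-Lin41 (-0.40, SE 0.0191, edgeR adjusted p = 5.03e-18).

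**Figure D3:**
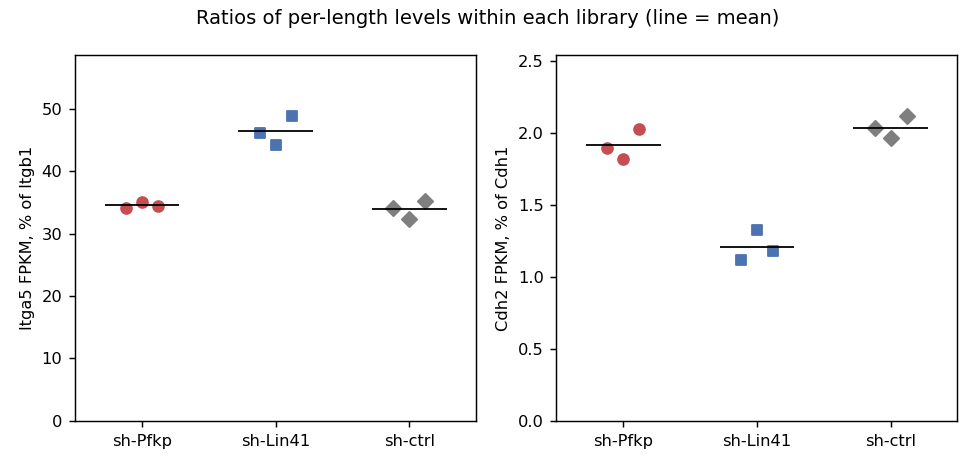
FPKM of Itga5 as a percentage of that of Itgb1 (left) and FPKM of Cdh2 as a percentage of that of Cdh1 (right) in each library, with a line at the group mean and linear axes that start at 0. The sh-Lin41 libraries are the highest in the left panel, at 44.2% to 48.8%, and the lowest in the right panel, at 1.12% to 1.32%.

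Vimentin RNA was abundant and modestly higher in both knockdowns. Vim (ENSMUSG00000026728), the intermediate filament gene of mesenchymal cells, had 282, 273 and 290.3 CPM in sh-Pfkp, 283, 270.4 and 278 CPM in sh-Lin41 and 229, 225 and 225 CPM in sh-ctrl. Control libraries lay within 5 CPM of each other and below all 6 knockdown libraries. The means were 282 ± 8.43 CPM in sh-Pfkp, 277 ± 6.43 CPM in sh-Lin41 and 226 ± 2.63 CPM in sh-ctrl. Vim rose by 0.32 on the log2 scale in sh-Pfkp (SE 0.0250, edgeR adjusted p = 2.32e-12), an increase of 24.4%, and by 0.29 in sh-Lin41 (SE 0.0249, edgeR adjusted p = 1.22e-11), an increase of 22.4%. The knockdowns differed by 0.02, with a 95% interval from -0.03 to 0.07, and the sign of this value changed with the scaling. Other filament and lamin genes mostly went the other way. Of 11 tested, 1 rose and 9 fell in sh-Pfkp (median log2 fold change -0.60), and 1 rose and 7 fell in sh-Lin41 (median -0.39). Ina, a neuronal filament, rose to 87.0 ± 2.97 CPM in sh-Pfkp, against 42.9 ± 2.11 CPM in sh-ctrl (log2 1.02, SE 0.0487, edgeR adjusted p = 7.23e-18). Prph, the filament peripherin of peripheral neurons, fell in sh-Pfkp (log2 -1.63, SE 0.128, edgeR adjusted p = 1.74e-12). The keratin gene Krt19, also counted among the epithelial genes, fell in sh-Lin41 (-1.80, SE 0.195, edgeR adjusted p = 2.35e-09), as did the lamin gene Lmnb1 (-0.17, SE 0.0210, edgeR adjusted p = 2.58e-08).

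Fibronectin RNA rose in sh-Pfkp and differed from sh-ctrl by less than the spread between libraries in sh-Lin41. Fn1 (ENSMUSG00000026193), whose protein is assembled into matrix fibrils that cells pull on, had 1048, 1007 and 1024 CPM in sh-Pfkp, 902, 921 and 913 CPM in sh-Lin41 and 909, 921 and 902 CPM in sh-ctrl. All 3 sh-Pfkp libraries stood above the other 6, whose ranges overlapped. The log2 fold change in sh-Pfkp was 0.17 (SE 0.0171, edgeR adjusted p = 3.59e-10), and that in sh-Lin41 was 0.00, with an edgeR adjusted p of 0.926 and a 95% interval from -0.03 to 0.04. Set against sh-Lin41, Fn1 was also higher in sh-Pfkp, by 0.17 (SE 0.0170, edgeR adjusted p = 3.66e-10). Its exons overlap those of Apol7d on the other strand in the reference annotation, which is not in the deposited table.

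Of 17 tested genes for fibronectin assembly and other matrix, 8 rose and 6 fell in sh-Pfkp, with a median log2 fold change of 0.29, and 5 rose and 4 fell in sh-Lin41, with a median of -0.09. Loxl2, a collagen and elastin crosslinking enzyme, fell to 18.5 ± 0.290 CPM in sh-Pfkp, against 53.8 ± 0.901 CPM in sh-ctrl (log2 -1.54, SE 0.0568, edgeR adjusted p = 8.50e-21), and to 32.2 ± 2.34 CPM in sh-Lin41 (-0.74, SE 0.0510, edgeR adjusted p = 6.40e-14). Tgm2, the tissue transglutaminase that crosslinks fibronectin, fell to 4.94 ± 0.576 CPM in sh-Pfkp, against 17.8 ± 0.309 CPM in sh-ctrl (log2 -1.85, SE 0.113, edgeR adjusted p = 3.77e-15). Sparc, a secreted collagen-binding protein, fell in sh-Lin41 (-0.60, SE 0.0417, edgeR adjusted p = 1.09e-13). The genes that rose in sh-Pfkp included the fibrillar collagen genes Col1a1, Col1a2 and Col3a1, which also stand in the fibroblast list and were picked out after their values were seen. They had 363, 283 and 292 counts over the 3 sh-Pfkp libraries, 92, 10 and 2 counts over those of sh-Lin41 and 97, 1 and 2 counts over those of sh-ctrl. Thy1 and Pdgfrb of the same fibroblast list fell in sh-Pfkp, to 1.85 ± 0.0471 and 2.57 ± 0.224 CPM, against 3.70 ± 0.205 and 8.28 ± 0.380 CPM in sh-ctrl. The summed fibroblast list was highest in sh-Pfkp, at 25.3 to 27.7 CPM in all, beside mean levels of Fn1 of 1026 ± 20.4 CPM in sh-Pfkp and 911 ± 9.59 CPM in sh-ctrl, and its part in the rise of Fn1 was not tested.

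The fibronectin receptor's chains moved apart in sh-Lin41. Itga5 (ENSMUSG00000000555), the alpha chain that gives the receptor its fibronectin specificity, had 97.2, 102 and 97.0 CPM in sh-Pfkp, 120.3, 121 and 126 CPM in sh-Lin41 and 103, 99.1 and 107 CPM in sh-ctrl. The sh-Lin41 libraries stood above all others, and the sh-Pfkp and sh-ctrl ranges overlapped. Itga5 rose by 0.25 on the log2 scale in sh-Lin41 (SE 0.0333, edgeR adjusted p = 1.45e-07) and was lower in sh-Pfkp than in sh-Lin41 at -0.31 (SE 0.0331, edgeR adjusted p = 1.50e-09). In sh-Pfkp against sh-ctrl its log2 fold change was -0.06 with an edgeR adjusted p of 0.129. Without scaling factors it was -0.11 and was called (edgeR adjusted p = 0.00768), as it was with limma on log2(FPKM + 1) at -0.10 (adjusted p = 0.0446).

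Itgb1 (ENSMUSG00000025809), the beta chain that pairs with many alpha chains, had 247, 252 and 244 CPM in sh-Pfkp, 226, 239 and 225 CPM in sh-Lin41 and 263, 266 and 264 CPM in sh-ctrl. No group overlapped another, and the control was highest. Itgb1 fell by 0.09 on the log2 scale in sh-Pfkp (SE 0.0245, edgeR adjusted p = 0.00162) and by 0.20 in sh-Lin41 (SE 0.0245, edgeR adjusted p = 2.52e-08). Set against sh-Lin41 it was higher in sh-Pfkp by 0.11 (SE 0.0245, edgeR adjusted p = 0.000373). This call was lost with limma on log2(FPKM + 1) (adjusted p = 0.0736) and on log2(FPKM + 0.1). Per transcript length, Itga5 was 34.2%, 35.1% and 34.5% of Itgb1 in sh-Pfkp, 46.1%, 44.2% and 48.8% in sh-Lin41 and 34.0%, 32.4% and 35.2% in sh-ctrl. The share was higher in every sh-Lin41 library than in any other and overlapped between sh-Pfkp and sh-ctrl. Of 12 other integrin genes tested 3 rose and 2 fell in sh-Pfkp (median log2 fold change -0.08), and none rose and 3 fell in sh-Lin41 (median 0.06). Called genes made up 56.6% of all tested genes in sh-Pfkp and 54.3% in sh-Lin41, larger shares than among these integrin genes. Itga3, the alpha chain of a laminin receptor, fell in sh-Pfkp (log2 -0.21, SE 0.0347, edgeR adjusted p = 7.40e-06) and in sh-Lin41 (-0.34, SE 0.0349, edgeR adjusted p = 7.81e-10). Itgb5, the beta chain of a vitronectin receptor, rose in sh-Pfkp (0.41, SE 0.0844, edgeR adjusted p = 0.000112), and Itga1, the alpha chain of a collagen receptor, fell in sh-Lin41 (-1.35, SE 0.182, edgeR adjusted p = 1.85e-07). The 5 calls in sh-Pfkp became 3 with DESeq2, 2 with limma on log2(FPKM + 1), and 3 without sh-Pfkp replicate 2, sh-Pfkp replicate 3 or sh-ctrl replicate 3.

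The proteins that tie integrins to actin were measured through 22 tested genes, of which 3 rose and 10 fell in sh-Pfkp and 4 rose and 12 fell in sh-Lin41, with a median log2 fold change of -0.07 in each. Over all tested genes, 28.3% were called higher and 28.3% lower in sh-Pfkp, and 26.9% and 27.3% in sh-Lin41. Bcar1, the adhesion scaffold p130Cas, fell in sh-Pfkp (-0.48, SE 0.0395, edgeR adjusted p = 5.92e-12). Tns3, a tensin found at fibrillar adhesions, rose to 539.5 ± 0.612 CPM in sh-Lin41, against 349 ± 2.99 CPM in sh-ctrl (log2 0.63, SE 0.0190, edgeR adjusted p = 5.33e-23).

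**Figure D4:**
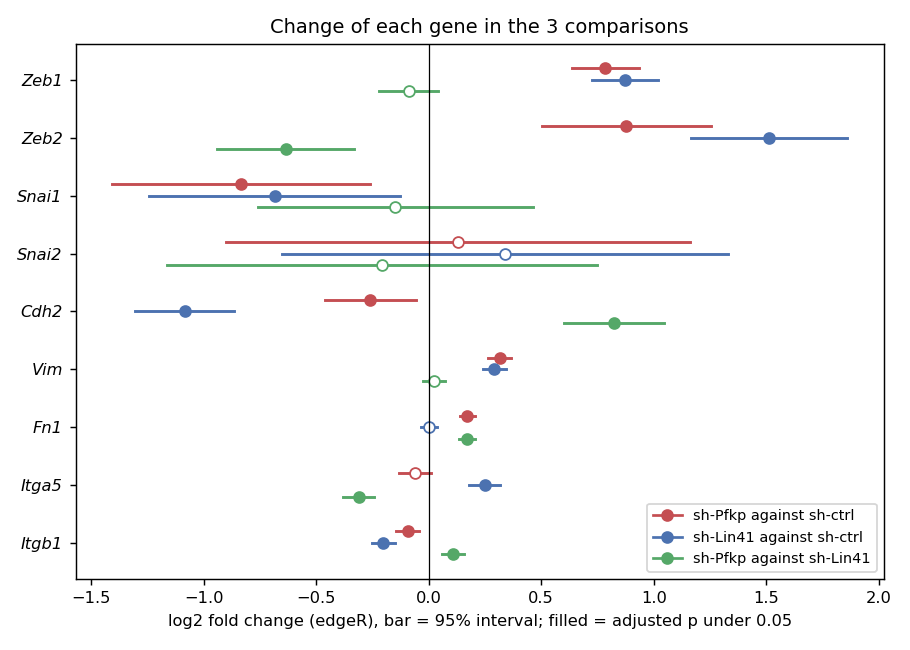
Log2 fold change of each of the 9 genes from edgeR (horizontal axis) in sh-Pfkp against sh-ctrl, sh-Lin41 against sh-ctrl and sh-Pfkp against sh-Lin41, with bars of the 95% interval and filled points where the adjusted p is under 0.05. Zeb1 and Zeb2 lie to the right and Snai1 and Cdh2 to the left in both knockdowns, and Zeb2 in sh-Lin41 has the largest value, 1.51.

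The 2 knockdowns were also compared directly. In sh-Pfkp against sh-Lin41 5 of the 9 genes were called, with Cdh2, Fn1 and Itgb1 higher and Zeb2 and Itga5 lower, beside 27.4% of all tested genes called higher and 27.8% lower. None differed by 2-fold or more, as 4.49% of all genes did. The groups did not overlap for the same 5 genes, and 59.8% of all genes had groups that did not overlap in this comparison. Against sh-ctrl the groups did not overlap for 7 genes in each knockdown, beside 61.0% of all genes in sh-Pfkp and 59.0% in sh-Lin41.

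Epithelial genes were mostly lower in both knockdowns. Of 26 tested, 1 rose and 19 fell in sh-Pfkp (median log2 fold change -0.56), and none rose and 21 fell in sh-Lin41 (median -0.45). Epcam, an epithelial adhesion molecule that stem cells also carry, fell to 94.1 ± 3.03 CPM in sh-Pfkp, against 130.8 ± 2.23 CPM in sh-ctrl (log2 -0.48, SE 0.0319, edgeR adjusted p = 3.97e-14). Dsp, the desmosome plaque gene, fell in sh-Pfkp (-0.71, SE 0.0493, edgeR adjusted p = 9.18e-14). Cldn4, a tight junction claudin, fell to 25.3 ± 0.441 CPM in sh-Lin41, against 56.1 ± 2.59 CPM in sh-ctrl (-1.15, SE 0.0497, edgeR adjusted p = 5.20e-19). Of the 12 genes whose promoters held the E-box letters shown above for Epcam and Cldn4, 9 fell in each knockdown, with median log2 fold changes of -0.67 in sh-Pfkp and -0.90 in sh-Lin41. Of the 6 matched genes without them, 4 fell in each, with medians of -0.47 and -0.34, and the difference between these small sets was not tested. Genes of the list without a matched promoter, Cdh1 among them, are in neither set.

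Mesenchymal markers outside the 9 genes mostly fell as well. Of 15 tested, 4 rose and 9 fell in sh-Pfkp (median log2 fold change -0.33), and 2 rose and 8 fell in sh-Lin41 (median -0.39). Tpm2, a tropomyosin, fell to 5.32 ± 0.258 CPM in sh-Pfkp and 7.35 ± 0.211 CPM in sh-Lin41, against 14.1 ± 0.701 CPM in sh-ctrl (log2 -1.41 and -0.94, edgeR adjusted p = 5.72e-13 and 1.18e-09). Pdgfrb, a growth factor receptor of mesenchymal cells that is also in the fibroblast list, fell in sh-Pfkp (-1.68, SE 0.147, edgeR adjusted p = 2.28e-11). Ncam1, a neural adhesion molecule that is induced in the transition, rose to 64.8 ± 1.52 CPM in sh-Lin41, against 36.6 ± 1.83 CPM in sh-ctrl (log2 0.83, SE 0.0455, edgeR adjusted p = 2.48e-16).

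**Figure D5:**
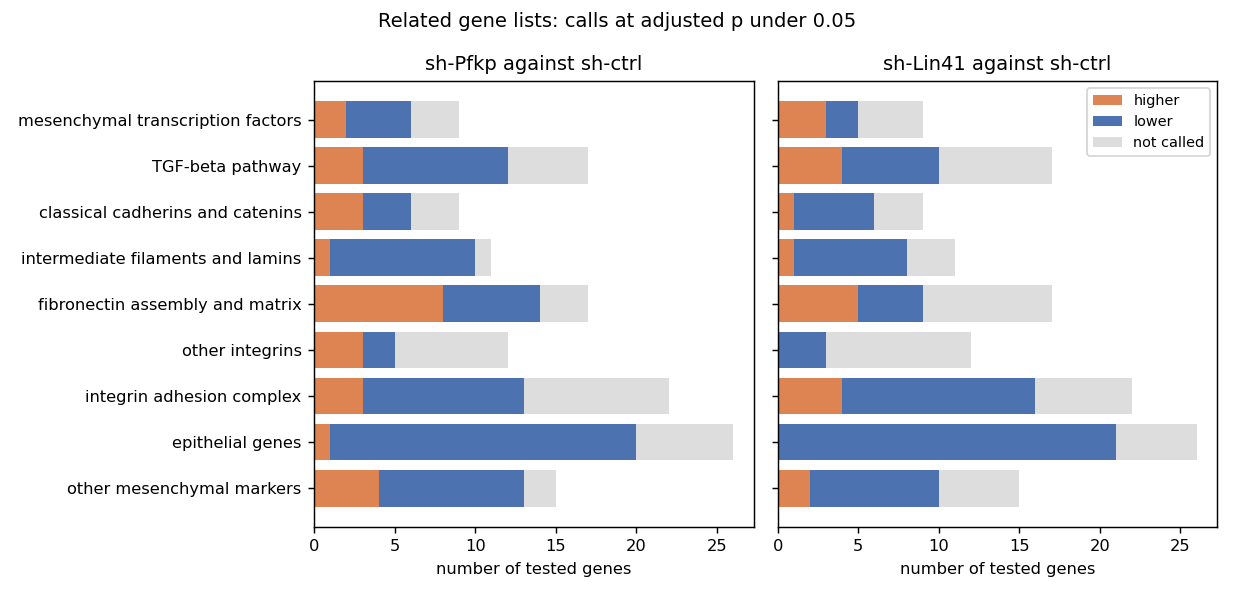
Number of tested genes called higher, called lower or not called at an adjusted p under 0.05 in each related list, for sh-Pfkp against sh-ctrl (left) and sh-Lin41 against sh-ctrl (right), with bars that start at 0. Epithelial genes are mostly called lower, 19 and 21 of 26, and other mesenchymal markers are mostly lower too, 9 and 8 of 15.

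Per transcript length, the genes spanned a wide range, and their order changed in places between the groups. In sh-Pfkp the order of mean FPKM was Vim (127), Fn1 (123), Itgb1 (63.7), Itga5 (22.0), Zeb1 (4.52), Cdh2 (2.38), Zeb2 (0.760), Snai1 (0.563) and Snai2 (0.277), and only the ranges of Vim and Fn1 overlapped between neighbours. In sh-Lin41 Vim (129) stood above Fn1 (112) without overlap, and Zeb2 (1.64) came before Cdh2 (1.35) and Snai1 (0.643) before Snai2 (0.333), each pair with overlapping ranges. In sh-ctrl Fn1 (113) stood above Vim (106) and Cdh2 (2.93) above Zeb1 (2.51), both without overlap, whereas Snai1 (1.04) and Zeb2 (0.633) overlapped. The order of Fn1 and Vim and of Cdh2 and Zeb1 was thus the other way round in sh-ctrl. In all 3 groups Vim and Fn1 lay above at least 96.9% of all listed genes, and Snai2 was above 44.0% of them in sh-Pfkp, 44.3% in sh-Lin41 and 42.9% in sh-ctrl.

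For Vim, Cdh2 and Fn1 the genes with the most similar changes were looked up by the distance between their log2 fold changes in both knockdowns against sh-ctrl, among those averaging at least 10 CPM over the 9 libraries. With only 2 values per gene, near matches are common in a table of this size. Nearest to Vim among 8457 genes were Fam13b (log2 0.32 in sh-Pfkp and 0.29 in sh-Lin41), Scaf8 (0.31 and 0.29) and Star (0.32 and 0.30). Nearest to Fn1 were Ncoa7 (0.17 and -0.00), Lypla2 (0.17 and 0.00) and Mrgbp (0.17 and 0.00). Cdh2 had no match as close, and its nearest were Pfkfb3 (-0.27 and -1.04), Rnf165 (-0.29 and -1.05) and Zbtb32 (-0.22 and -1.16).

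In the authors' deposited table, 5 of the 9 genes have an FDR under 0.05 in sh-Pfkp and 6 in sh-Lin41. Their filtered table, which also asks for an absolute log2 ratio over 1, holds none of the 9 in sh-Pfkp and Zeb1, Zeb2 and Cdh2 in sh-Lin41, with deposited log2 ratios of 1.01, 1.37 and -1.12. The Zeb1 ratio there is taken from FPKM and lies above the 0.87 obtained from counts with edgeR.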

How the data were processed

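Total RNA from 9 libraries of R1 embryoid bodies was profiled. Per the submitters' processing notes, the tools included RSEM, StringTie 1.3.1, HISAT2, Bowtie2 2.2.8 and fastp 0.18.0. Build, annotation and strand setting were not given in the sources used here. The deposited tables hold a whole-number count and an FPKM value per gene and library, per the file headers, and because RSEM is named the counts may be estimates that the authors rounded. The authors also deposited a log2 ratio of mean FPKM, a p-value and an FDR for each gene and comparison. The control values are the same in both tables, so all 9 libraries entered one fit.

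Counts were tested in R 4.3.3 with edgeR 4.0.16 (filterByExpr by group, TMM scaling, quasi-likelihood test, Benjamini-Hochberg adjustment, threshold 0.05 and no minimum fold). The test and the intervals rest on the 6 residual degrees of freedom of a gene plus prior degrees of freedom estimated over all genes. Each SE is the ratio of the log2 fold change to the root of its F statistic. The steps were tested on simulated data. Alternatives were DESeq2 1.42.0, limma 3.58.1 (voom, and trend on log2(FPKM + 1) and log2(FPKM + 0.1)), other scaling, no filter on low counts, 6-library fits, a 2-fold minimum, a replicate block and the omission of each library.

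The 9 genes, the related lists and the tests were chosen with earlier results of these data known. Named from each list were the 2 called genes with the smallest adjusted p in each comparison with sh-ctrl, and for Vim, Cdh2 and Fn1 the 3 genes nearest in both log2 fold changes. Some genes stand in more than one list. Some genes that this rule names are not reported here. The implied length of a gene is the length at which its count and the library's total count give the deposited FPKM. The labels number the replicates without saying what a number marks. Over genes averaging at least 10 CPM, libraries of sh-Pfkp and sh-ctrl with the same number deviated together from their group means (r = 0.108, 0.307 and 0.449), but a pair of these groups with different numbers reached 0.143, and sh-Pfkp 2 with sh-Lin41 3 reached 0.402. With sh-Lin41, r of same-numbered libraries ran from -0.314 to 0.0344. For the block the numbers were taken as shared by all groups, sh-Lin41 included, which these values do not establish. No pair of replicates differed by less than counting noise allows.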

Additional observations from a re-analysis of the deposited data

How the results depend on the processing

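Over 18 alternatives to each of 27 fold changes, 447 of 486 values kept their direction and their side of the threshold, 18 lost a call, 3 gained one and 18 changed sign. The kept values include fold changes that stayed uncalled. They also include omissions of a library of the group not compared, which enters a comparison only through the shared fit. No fold change that changed sign had been called. Those of Fn1 in sh-Lin41 against sh-ctrl were -0.00177 with DESeq2 size factors, -0.00172 with DESeq2, -0.00648 and -0.00653 with limma on log2(FPKM + 1) and log2(FPKM + 0.1), and -0.00608 to 0.0114 over the omissions of a library. Those of Vim in sh-Pfkp against sh-Lin41 were -0.0226 without scaling factors and -0.0193 and -0.0195 with the same FPKM settings. Those of Snai2 were -0.0808 in sh-Lin41 against sh-ctrl and 0.21 in sh-Pfkp against sh-Lin41 with limma-voom, 0.0104 in the second with log2(FPKM + 0.1), and over the omissions of a library -0.0252 to 0.289 in sh-Pfkp against sh-ctrl, -0.42 to 0.84 in sh-Lin41 against sh-ctrl and -0.70 to 0.56 in sh-Pfkp against sh-Lin41. The causes were not tested. With a 2-fold minimum 0, 2 and 0 of the 9 genes were called in sh-Pfkp against sh-ctrl, sh-Lin41 against sh-ctrl and sh-Pfkp against sh-Lin41. With limma on log2(FPKM + 0.1) 3 were called in the last of these. Leaving out each library gave 5 to 7, 6 to 7 and 5 called genes. A replicate block left 7, 7 and 5 of the 9 genes called and changed no call among them. Low counts limit Snai1, Snai2 and Zeb2.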
